A study of Mus musculus with 34 samples.

Results

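BTB12021, RDR00572, S02045 and RH01954, 4 benzenesulfonamides described by the study as activators of microexon splicing, were examined as a group. Each had 1 library, which gave 4 of the 34 libraries of the series. They were taken by compound name. The cells were N2A, a mouse neuroblastoma line, treated for 24 h in medium holding 0.4% DMSO, and the reference was 3 libraries of cells given DMSO alone, labelled A, B and C. BTB12021 was given at 20 µM, RDR00572 at 2.5 µM, S02045 at 5 µM and RH01954 at 2.5 µM. The other 23 compounds of the series, 4 HDAC inhibitors with 2 libraries each among them, gave 27 further libraries of the same line, time and vehicle. All values thus come from 1 immortal line, and replicate cultures of the 4 compounds are not analysed here. In chemical terms RDR00572, S02045 and RH01954 each have a benzenesulfonamide joined through an N-(methylideneamino) link to an aryl ring with a hydroxy group. RDR00572 has chlorine on both rings, S02045 a methyl group on the sulfonyl ring and chlorine on the hydroxyphenyl ring, and RH01954 the same methyl group with a hydroxynaphthyl ring in place of the hydroxyphenyl ring. BTB12021 is a methylbenzenesulfonamide without that link, bound through its nitrogen to a bicyclic ring that holds nitrogen.

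Microexons are very short exons, here of up to 27 nt, that are included mostly in neuronal transcripts. Srrm4, a neuronal protein with serine and arginine repeats, promotes their inclusion together with Srsf11 and Rnps1, and Ptbp1 represses many of them. Most keep the reading frame and add or remove a few amino acids, often at the surface of proteins that work in vesicle traffic, adhesion and the cytoskeleton. An aryl sulfonamide anticancer drug, indisulam, is known to direct the splicing factor Rbm39 to destruction through the ubiquitin ligase receptor Dcaf15, and protein was not measured in these libraries.

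Exon use is given as percent spliced in (PSI), the percentage of transcripts that include an exon, retain an intron or use a splice site. The DMSO libraries had 37427027 (C) to 75978445 (A) reads at exon events, and the compound libraries 43421430 (BTB12021) to 52626014 (S02045). Because each compound had 1 library, the spread between libraries was taken from the treatments with 2 or 3 libraries, and a lone library was assumed to vary like them. A change was called at an adjusted p below 0.05 with a mean difference of at least 10 PSI, which 170 of 154646 tested events of all kinds met for the 4 compounds against DMSO (0.110%). Of 12 markers of sympathetic neuroblastoma, 10 were expressed above 5 RPKM (a read density scaled to transcript length and library depth), with Hand2 and Tubb3 between 194 and 431 RPKM in DMSO and the 4 compounds. None of 14 markers of other cell types reached 5 RPKM, and their summed level was 4.28 RPKM in DMSO and 4.41 to 6.32 RPKM in the 4 compounds, with Aqp4, Csf1r, Epcam and Mog at 0 throughout.

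The first question was which microexons the 4 compounds moved in common. Inclusion rose for 16 of 530 tested microexons (3.02% of those tested) and fell for 2 (0.377%), and in all 18 the 4 compounds lay on 1 side of the 3 DMSO libraries. The rises ranged from 11.3 to 35.1 PSI with a median of 23.6 PSI. For comparison, 43 of the 530 (8.11%) met the weaker condition of a mean rise of 10 PSI with no overlap, and 5 (0.943%) that of a fall. Leaving out 1 DMSO library lowered the count of rises to 3, 3 and 2 (without A, B and C). It was 5 without BTB12021, 10 without RDR00572, 10 without S02045 and 17 without RH01954. Because the 4 compounds and DMSO did not overlap in these 18 microexons, no direction could turn in these fits. Psap and Idh3g kept an adjusted p below 0.05 in all 7 fits and Zmynd8 in 6, whereas Lphn1, Picalm, Mtss1 and Scyl2 kept it in 1 and Ssr1 in 0.

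The inserts themselves are shown here because the measured change is the gain or loss of these bases in the transcript. Of the 16 risen microexons 14 could be matched in the GENCODE M21 annotation (GRCm38), as could both that fell, and all 16 matched lie in coding sequence. Each line gives the transcript 5′ to 3′ with the microexon in capitals and 12 bases of each neighbouring exon in lower case.
Sh3glb2, 12 nt: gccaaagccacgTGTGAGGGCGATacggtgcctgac
Zmynd8, 12 nt: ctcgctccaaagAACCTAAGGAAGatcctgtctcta
Snx14, 27 nt: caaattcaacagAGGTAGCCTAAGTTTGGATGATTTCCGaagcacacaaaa
L1cam, 12 nt: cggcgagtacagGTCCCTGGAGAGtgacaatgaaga
Lphn2, 12 nt: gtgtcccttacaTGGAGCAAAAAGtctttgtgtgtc
Psap, 9 nt: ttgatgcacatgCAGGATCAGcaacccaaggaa
Mtss1, 12 nt: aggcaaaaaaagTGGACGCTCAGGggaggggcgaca
Vps29, 12 nt: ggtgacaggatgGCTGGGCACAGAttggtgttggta
Idh3g, 12 nt: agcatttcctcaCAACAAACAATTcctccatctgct
Fip1l1, 27 nt: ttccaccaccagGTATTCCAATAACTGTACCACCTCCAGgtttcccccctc
Ahi1, 27 nt: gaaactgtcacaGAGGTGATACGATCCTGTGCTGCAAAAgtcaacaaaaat

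Microexons of Sh3glb2, Snx14, Picalm and Vps29 rose with all 4 compounds. Sh3glb2, an endophilin that curves membranes, carries a 12-nt microexon at chr2:30204746-30204757 (mm9, minus strand). It stood at 26.7, 17.9 and 9.09 PSI in the DMSO libraries and at 61.2 (BTB12021), 63.2 (RDR00572), 49.4 (S02045) and 38.3 PSI (RH01954). All compound libraries lay above all DMSO libraries, although DMSO itself spread over more than 17 PSI, and the rise was 2.32 ± 0.35 (SE) in log2 odds with an adjusted p of 0.029. The 27-nt microexon of Snx14, a sorting nexin, at chr9:88295561-88295587 rose from 51.7, 46.9 and 42.4 PSI to 86.6, 72.98, 70.3 and 74.5 PSI in the same order of compounds (adjusted p = 0.010). Picalm, a clathrin adaptor, rose from 30.5 to 34.6 PSI to between 45.5 and 52.3 PSI with its 24-nt microexon (adjusted p = 0.030). Vps29, a subunit of the retromer, stood at 53.5, 54.2 and 55.4 PSI in DMSO and at 74.5, 74.1, 73.1 and 65.3 PSI with the compounds (adjusted p = 0.018). The DMSO libraries of Vps29 lay within 2 PSI of each other, and its rise was 16.5 to 19.5 PSI over the 7 fits that left out 1 library, with an adjusted p below 0.05 in 3 of them.

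Microexons of L1cam, Lphn1, Lphn2, Mtss1 and Slit2 rose as well. L1cam, a neuronal adhesion molecule, has a 12-nt microexon in its cytoplasmic tail at chrX:71100991-71101002 that rose from 42.6, 41.4 and 38.1 PSI to 73.4, 63.7, 69.7 and 59.8 PSI (adjusted p = 0.0079). Its other microexon, of 15 nt, was at 80.3 to 87.9 PSI in DMSO and 79.8 to 93.8 PSI with the compounds and did not pass (adjusted p = 0.68). Lphn1 and Lphn2 encode latrophilins, adhesion receptors coupled to G proteins. The 15-nt microexon of Lphn1 rose from 52.8, 54.3 and 41.4 PSI to 83.8, 74.9, 78.7 and 70.4 PSI (adjusted p = 0.034), and the 12-nt microexon of Lphn2 from 16.95, 15.1 and 18.5 PSI to 56.3, 39.5, 36.9 and 34.9 PSI (adjusted p = 0.016). The paralogs thus moved the same way from different starting levels. Mtss1, which binds actin and curved membranes, had a 12-nt microexon almost absent in DMSO (2.19, 0.95 and 3.10 PSI) that reached 31.9, 31.1, 32.5 and 11.5 PSI (adjusted p = 0.034). Slit2, a secreted guidance cue, rose from 21.3 to 25.8 PSI to between 37.7 and 51.0 PSI with its 24-nt microexon (adjusted p = 0.0098).

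The smallest microexon of the group had the most precise rise. Psap encodes prosaposin, the precursor of lysosomal saposins, and its 9-nt microexon at chr10:59760285-59760293 was covered by at least 6088 reads in every library. It stood at 45.7, 44.9 and 45.8 PSI in DMSO, 45.5% ± 0.48 (SD, n = 3), and at 75.9, 69.7, 71.6 and 63.9 PSI with the compounds. The rise of 24.8 PSI had an adjusted p of 0.00075 and stayed below 0.05 in all 7 fits that left out 1 library. Idh3g, a subunit of mitochondrial isocitrate dehydrogenase, behaved in the same manner at the upper end of the scale. Its 12-nt microexon rose from 81.0, 82.5 and 81.9 PSI to 98.2, 96.7, 96.5 and 94.7 PSI (adjusted p = 0.00023, also below 0.05 in all 7 fits). Zmynd8, a reader of histone acetylation, has a 12-nt microexon at chr2:165678368-165678379 that rose from 52.3, 53.4 and 49.2 PSI to 90.1, 89.5, 87.6 and 76.9 PSI (adjusted p = 0.0018, and 0.067 in the 1 of 7 fits where it missed the threshold). Psap, Idh3g, Zmynd8, Vps29 and Ssr1 lay above all of the other 23 compounds with every one of the 4, the highest of those 23 for Psap being 62.7 PSI.

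The remaining rises were in Gramd1a (12 nt, sterol transfer), Pus7 (18 nt, a pseudouridine synthase), Ssr1 (15 nt, a translocon-associated receptor) and Scyl2 (12 nt, a clathrin-associated pseudokinase). The rises of these 4 were 20.8, 15.7, 13.7 and 11.3 PSI, with adjusted p of 0.027, 0.021, 0.041 and 0.036. The 27-nt microexons of Fip1l1 and Ahi1 were skipped more often. Fip1l1, a factor of the cleavage and polyadenylation complex, fell from 76.0, 79.3 and 73.8 PSI to 51.1, 45.7, 47.0 and 61.1 PSI (adjusted p = 0.011), and Ahi1, a protein of the ciliary transition zone, fell from 94.2, 92.4 and 94.3 PSI to 82.2, 77.8, 82.7 and 79.7 PSI (adjusted p = 0.031). All 18 called microexons had lengths that are multiples of 3 (100% of both sets), against 74.7% of all tested microexons and 92.0% of those with 10 to 90 PSI in DMSO.

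The exon gene lists give the same genes in another grouping. Of 22 tested microexons in genes of endocytosis and membrane traffic 3 rose (Sh3glb2, Snx14 and Picalm) with a median difference of 4.03 PSI over the list. Of 36 in genes of adhesion and the cytoskeleton 2 rose (L1cam and Lphn2, median 1.17 PSI). Of 6 in genes of chromatin and transcription 1 rose (Zmynd8, median 3.61 PSI). Over all tested microexons 16 of 530 rose (3.02%), with a median difference of 0.031 PSI. Most of these lay below 10 or above 90 PSI in DMSO, which limits how far they can move. The lists were not compared with microexons of similar PSI in DMSO, so these values do not show enrichment in any list.

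**Figure D1:**
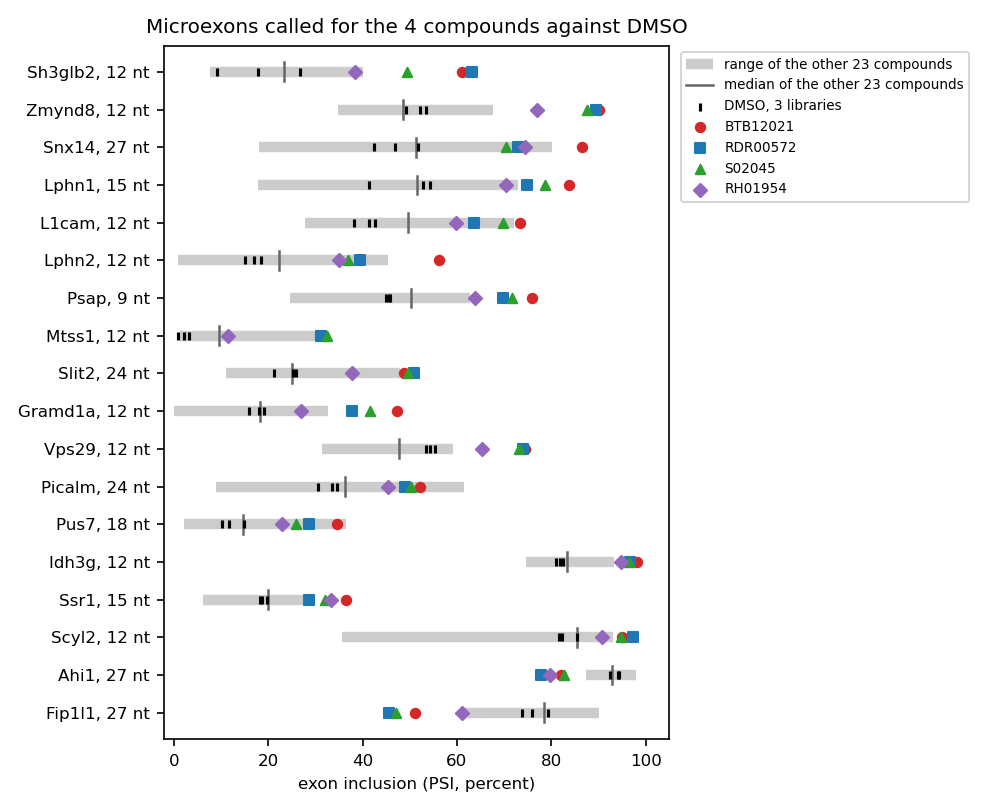
Inclusion (PSI, in percent) of the 18 microexons called for the 4 compounds against DMSO, 1 line per microexon, with 1 symbol for each compound library, black ticks for the 3 DMSO libraries, a grey bar for the range of the other 23 compounds and a grey tick for their median. The 4 symbols lie on 1 side of the DMSO ticks in every line, 16 to the right and 2 to the left, and they are closest together in Idh3g, at 94.7 to 98.2 PSI.

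Genes that the study assayed one by one were treated separately. They held 14 tested microexons, of which 12 ranged over at least 10 PSI in the 7 libraries, and 38 tested longer exons, of which 4 did. The microexons of Zmynd8, Snx14, L1cam (12 nt), Lphn2 and Pus7 were called, 5 of the 14, beside 18 of 530 microexons in all (3.40%), and none of the 4 longer exons was. The study chose these genes, so their share is not independent of that choice. Several of the others were higher in the mean but did not pass. A microexon of Clasp2, a microtubule plus-end protein, had 43.4, 27.9 and 40.4 PSI in DMSO. With the compounds it had 68.7, 66.8, 61.1 and 51.1 PSI (adjusted p = 0.26). Another Clasp2 microexon, of 24 nt, was higher by only 4.71 to 9.51 PSI over the 7 fits that left out 1 library. It had an adjusted p below 0.05 in 0 of them. Mast2, a kinase, had 33.3 to 48.9 PSI in DMSO and 56.7 to 62.2 PSI with the compounds (adjusted p = 0.46). The Ergic3 and Trappc9 microexons lay lower in the mean with the compounds, by 7.54 and 9.02 PSI, and neither passed (adjusted p = 0.54 and 0.45). In the longer neural exon of Zdhhc20, of 36 nt, DMSO had 28.96, 41.4 and 31.3 PSI and the compounds 59.2, 59.6, 47.5 and 44.6 PSI (adjusted p = 0.32). Mgrn1 (45 nt) and the 2 exons of Asph (45 and 48 nt) did not pass.

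Longer exons were called mostly in the other direction. Of 52269 tested cassette exons over 27 nt, 93 were included less (0.178%) and 33 more (0.0631%), again with no overlap between the 4 compounds and DMSO in any of the 126. The weaker condition of 10 PSI with no overlap was met by 427 exons that fell (0.817%) and 146 that rose (0.279%). Of the tested exons 49322 had at least 90 PSI in DMSO, where a rise of 10 PSI is not possible. Among the fallen exons 66.7% had 10 to 90 PSI in DMSO, and among the risen ones 93.9%. Directions were not compared among exons free to move either way. The count of falls was 10, 16 and 3 without DMSO library A, B and C, 53 without BTB12021 and 58 without RDR00572. The count of rises was 3, 4 and 2 without the 3 DMSO libraries and 21 without BTB12021. Fallen exons had a median length of 109 nt and a median of 80.7 PSI in DMSO, and 63.4% of them kept the frame. Risen exons had 69 nt, 37.4 PSI and 69.7%, and among all tested exons with 10 to 90 PSI in DMSO the values were 102 nt, 72.1 PSI and 52.4%.

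The largest falls were in genes of varied function. Zfp740, a zinc finger protein, lost its 124-nt exon at chr15:102039184-102039307 from 66.5, 54.8 and 56.8 PSI to 12.4, 10.1, 14.4 and 21.9 PSI (fell by 44.7 PSI, adjusted p = 0.0016). The 111-nt exon of Dst, a giant linker of the cytoskeleton, fell from 61.9, 52.99 and 68.4 PSI to 14.5, 25.9, 22.2 and 35.1 PSI (adjusted p = 0.020). Adipor2, a receptor for adiponectin, fell from 90.4, 96.6 and 95.4 PSI to 52.4, 52.9, 59.8 and 65.5 PSI (adjusted p = 0.0016). In all 3 the compounds stayed below every DMSO library and below every one of the other 23 compounds. Fam171a1, Gemin8 (a subunit of the SMN complex that builds snRNPs), Ppip5k2 (an inositol pyrophosphate kinase), Lrrc40 and Tmem209 fell by 36.1, 35.5, 33.8, 33.5 and 32 PSI, and Gemin8 kept its call in 1 of the 7 fits that left out 1 library. The 132-nt exon of Tmem209, a nuclear envelope protein, was nearly constitutive in DMSO (97.9, 97.3 and 96.2 PSI) and was at 58.9, 60.1, 60.3 and 81.3 PSI with the compounds (adjusted p = 0.00023, below 0.05 in all 7 fits that left out 1 library).

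Several fallen exons lie in genes of growth control and RNA processing, and these were picked after their values were seen. Ezh2, the methyltransferase of Polycomb repressive complex 2, had its 126-nt exon at 65.3, 64.7 and 62.0 PSI in DMSO and 27.9, 26.6, 28.3 and 45.5 PSI with the compounds (adjusted p = 0.0017). The 33-nt exon of Tia1, an RNA-binding protein that itself regulates splicing, fell from 77.7, 80.3 and 79.0 PSI to 39.9, 44.6, 40.8 and 64.7 PSI (adjusted p = 0.0091). Cdk4, a kinase of the G1 phase, was covered by at least 8444 reads and fell from 76.7, 77.8 and 74.1 PSI to 53.1, 51.6, 55.8 and 63.7 PSI in its 234-nt exon (adjusted p = 0.0091). Papola, the nuclear poly(A) polymerase, fell from 54.5, 52.1 and 55.6 PSI to 24.6, 26.5, 23.7 and 36.8 PSI in a 63-nt exon (adjusted p = 0.0091). In each of these 4 exons the RH01954 library lay between DMSO and the libraries of the other compounds.

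The longer exons that rose most were in Mpzl1, 4932438A13Rik, Snap91 and Mff. Mpzl1, a membrane glycoprotein of the myelin protein zero family, went from 38.6, 37.4 and 40.7 PSI to 83.8, 80.3, 79.9 and 68.1 PSI in its 106-nt exon (adjusted p = 0.00028, below 0.05 in all 7 fits that left out 1 library). Snap91, the clathrin adaptor AP180, rose from 50.3, 50.2 and 46.1 PSI to 87.4, 82.7, 84.6 and 76.1 PSI (adjusted p = 0.0091). A 60-nt exon of Mff, the receptor of the mitochondrial fission machinery, rose from 33.3, 37.1 and 31.8 PSI to 73.2, 72.8, 66.3 and 53.2 PSI (adjusted p = 0.0057). The gene 4932438A13Rik rose from 33.9, 40.3 and 39.1 PSI to 86.4, 75.1, 67.8 and 63.3 PSI in a 51-nt exon (adjusted p = 0.0040). Myosin Va (Myo5a), which carries vesicles along actin, rose from 52.3, 48.7 and 48.9 PSI to 79.1, 84.9, 78.9 and 69.8 PSI in an 81-nt exon (adjusted p = 0.00125), and Unc13a, a priming factor of synaptic vesicles, from 29.4, 23.2 and 23.3 PSI to 62.8, 54.2, 57.1 and 41.0 PSI in a 30-nt exon (adjusted p = 0.0098). The last pair was chosen after the values were seen.

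Pairs of exons that replace one another moved in opposite directions. Snap25, a SNARE protein of synaptic vesicle fusion, has 2 neighbouring exons of 118 nt of which a transcript usually carries 1, and they are shown because the swap changes the coding sequence without changing its length. Capitals mark the bases that differ between them, and 87 of the 118 bases (73.7%) are identical.
Snap25 upstream exon: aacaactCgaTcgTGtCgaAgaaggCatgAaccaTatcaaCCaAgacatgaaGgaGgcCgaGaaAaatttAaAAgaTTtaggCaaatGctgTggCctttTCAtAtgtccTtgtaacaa
Snap25 downstream exon: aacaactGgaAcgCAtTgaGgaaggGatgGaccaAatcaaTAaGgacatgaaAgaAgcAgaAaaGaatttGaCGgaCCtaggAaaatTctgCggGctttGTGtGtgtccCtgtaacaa
The upstream exon (chr2:136595479-136595596) fell from 81.6, 77.7 and 82.8 PSI to 44.6, 48.4, 45.6 and 57.1 PSI, and the downstream exon (chr2:136595793-136595910) rose from 10.8, 14.5 and 10.2 PSI to 43.3, 36.6, 45.1 and 31.6 PSI (adjusted p = 0.0016 for both). In Ogdh, the first component of the 2-oxoglutarate dehydrogenase complex, the 91-nt exon fell from 52.4, 49.0 and 49.6 PSI to 24.2, 26.3, 26.8 and 34.4 PSI (adjusted p = 0.0070), and the 103-nt exon downstream rose from 50.5, 50.6 and 52.6 PSI to 76.0, 76.4, 74.0 and 66.0 PSI (adjusted p = 0.0036). Pkm2, the pyruvate kinase gene in which exclusive exons give the M1 and M2 enzymes, included a 167-nt exon more, from 27.3, 27.7 and 22.8 PSI to 45.8, 48.1, 47.8 and 39.6 PSI (adjusted p = 0.0091). Pkm2 is here the name of the gene and does not say which enzyme this exon gives, and its partner exon is not shown. The reciprocal pairs of Snap25 and Ogdh share reads, so the 2 changes in Snap25 or in Ogdh are not separate evidence.

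**Figure D2:**
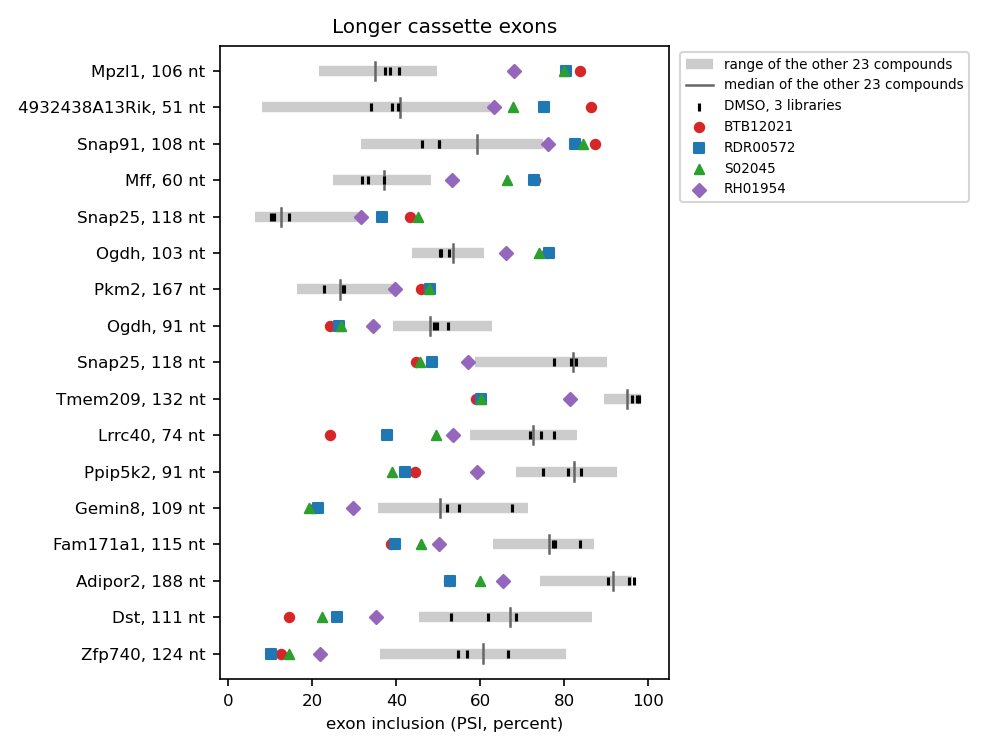
Inclusion (PSI, in percent) of longer cassette exons, with symbols as in the plot of microexons: the 4 largest rises, the 8 largest falls, and the exons of Snap25, Ogdh and Pkm2. All 4 compounds are beyond the range of the other 23 compounds in Zfp740, Dst, Adipor2 and Tmem209, and the Snap25 exons of 118 nt shift in opposite directions.

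Few introns and splice sites were called for the 4 compounds together. Of 75445 tested introns 3 were retained more (0.00398%) and 1 less (0.00133%). The weaker condition of 10 PSI with no overlap was met by 144 introns retained more (0.191%) and 14 retained less (0.0186%). The 521-nt intron of Pomt1, a protein mannosyltransferase, went from 20.8, 25.3 and 24.1 PSI to 80.5, 61.7, 63.0 and 48.2 PSI (adjusted p = 0.035), that of Braf, a kinase of the MAPK cascade, from 44.0, 51.4 and 39.0 PSI to 77.2, 76.7, 83.5 and 71.2 PSI (adjusted p = 0.0093), and that of Top2a, a topoisomerase, from 12.7, 13.99 and 13.3 PSI to 33.9, 27.8, 28.7 and 20.9 PSI (adjusted p = 0.034). D4Wsu53e fell from 49.2 to 54.7 PSI to between 18.5 and 28.4 PSI (adjusted p = 0.018). Among alternative acceptor sites 21 of 15229 were called (0.138%), and among donor sites 1 of 11173 (0.00895%). The acceptor of Snx13, a sorting nexin, rose from 34.1, 29.3 and 27.9 PSI to 74.2, 82.0, 82.6 and 63.8 PSI (adjusted p = 0.0091), and that of Ttpal, a lipid transfer protein, from 25.1, 23.6 and 15.9 PSI to 68.6, 61.6, 66.9 and 42.8 PSI (adjusted p = 0.024). That of Dhdds, which makes dolichol, fell from 63.4, 59.5 and 67.3 PSI to 19.6, 15.99, 24.6 and 34.1 PSI (adjusted p = 0.0043), and that of Acsl5, an acyl-CoA synthetase, from 97.6, 97.2 and 97.1 PSI to 57.6, 63.5, 70.7 and 87.7 PSI (adjusted p = 0.00028). The count of more retained introns was 0, 1 and 0 without DMSO library A, B and C, 1 without BTB12021, RDR00572 or S02045, and 6 without RH01954.

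The same 4 libraries were then set against the rest of the series, without DMSO. The other 23 compounds include some that the study describes as inhibitors of microexon splicing. A microexon above their mean is therefore not by itself a rise over untreated cells. Against the mean of the other 23 compounds 43 of 528 microexons were called (8.14%), 40 of them higher (7.58%) and 3 lower (0.568%). Of 52203 longer exons 457 were called (0.875%), with 356 lower (0.682%) and 101 higher (0.193%), and of 75347 introns 71 (0.0942%), with 67 retained more (0.0889%) and 4 less (0.00531%). Over all events 673 of 154461 were called (0.436%). All 16 microexons that rose against DMSO were among the higher ones, and 87 of the 93 fallen longer exons were among the lower ones, both comparisons using the same 4 libraries. Every one of the 4 compounds lay beyond all 23 others in 5 of the 16 risen microexons and 56 of the 93 fallen exons. These exons had been chosen by the values of the same 4 libraries. The share over all tested exons was not counted, so these counts are a description. Against the 4 HDAC inhibitors (Vorinostat, BRD4884, BRD6688 and CI-994), which were the replicated activators, 38 of 519 microexons were called (7.32%), 20 higher (3.85%) and 18 lower (3.47%). Of 51030 longer exons 719 were called (1.41%), with 607 lower (1.19%) and 112 higher (0.219%), and of 73210 introns 111 (0.152%), with 99 retained more (0.135%) and 12 less (0.0164%). Over all events 1017 of 150169 were called (0.677%). Of the 16 risen microexons 7 were called above the HDAC inhibitors, with Vps29 at 38.7 PSI in their mean and 65.3 to 74.5 PSI with the 4 compounds, and 85 of the 93 fallen exons were called below them. The Trappc9 microexon, not called against DMSO, was called lower than in both the other 23 compounds and the HDAC inhibitors, whose mean was 45.4 PSI against 20.8 to 24.8 PSI in the 4.

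RDR00572 and RH01954 were the only pair given at the same dose, 1 of 6 possible pairs, and differ in the chlorine or methyl group on the sulfonyl ring and in the hydroxyphenyl or hydroxynaphthyl ring. No event passed the test of RDR00572 against RH01954 (0 of 154646, 0.00%). The smallest adjusted p was 0.081, and 7568 events (4.89%) had an unadjusted p below 0.05. With 1 library each the intervals were wide, with a median half-width of 1.25 in log2 odds for cassette exons with 10 to 90 PSI in DMSO, so a missing call does not show that the compounds act alike. Among the 144 exons called for the 4 against DMSO, RDR00572 lay farther from DMSO than RH01954 in 136, by a median of 8.20 PSI. The 95% interval of the difference left out 0 in 48 of the 144, with RDR00572 the farther one in all 48. All 144 exons were read in the same pair of libraries, so these counts are a description and not separate observations. In Zmynd8 RDR00572 was 12.6 PSI higher (difference 1.35 in log2 odds, 95% interval 0.35 to 2.35), in Tmem209 21.2 PSI lower (-1.53, interval -2.58 to -0.48) and in Acsl5 24.2 PSI lower (-2.03, interval -2.96 to -1.10). In Snx14 the libraries differed by 1.53 PSI (-0.11, interval -1.08 to 0.85) and in Psap by 5.82 PSI (0.38, interval -0.10 to 0.86).

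Set side by side at their different doses, the compounds gave responses of unequal size. Over the 16 risen microexons the median difference from DMSO was 29.7 PSI with BTB12021 (20 µM), 22.8 PSI with RDR00572 (2.5 µM), 23.6 PSI with S02045 (5 µM) and 13.98 PSI with RH01954 (2.5 µM). Over the 93 fallen exons the medians were -21.7, -22.7, -21.0 and -12.5 PSI in the same order. Tested singly against the shared DMSO libraries, 19 microexons were called for BTB12021 (3.58%), 18 of them higher (3.40%) and 1 lower (0.189%). RDR00572 raised 12 (2.26%) and lowered 2 (0.377%), S02045 raised 9 (1.70%) and lowered 1 (0.189%), and RH01954 raised 2 (0.377%) and lowered 0 (0.00%; 78 of 530 had an unadjusted p below 0.05). Each of the 4 thus had more microexons called higher than lower. Longer exons called lower numbered 129 (0.247%), 168 (0.321%), 96 (0.184%) and 20 (0.0383%). These counts depend on the DMSO libraries: the events called in all were 25 to 108 for BTB12021, 12 to 151 for RDR00572, 0 to 68 for S02045 and 0 to 9 for RH01954 when library A, B or C was left out, with the highest count without C in each case.

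**Figure D3:**
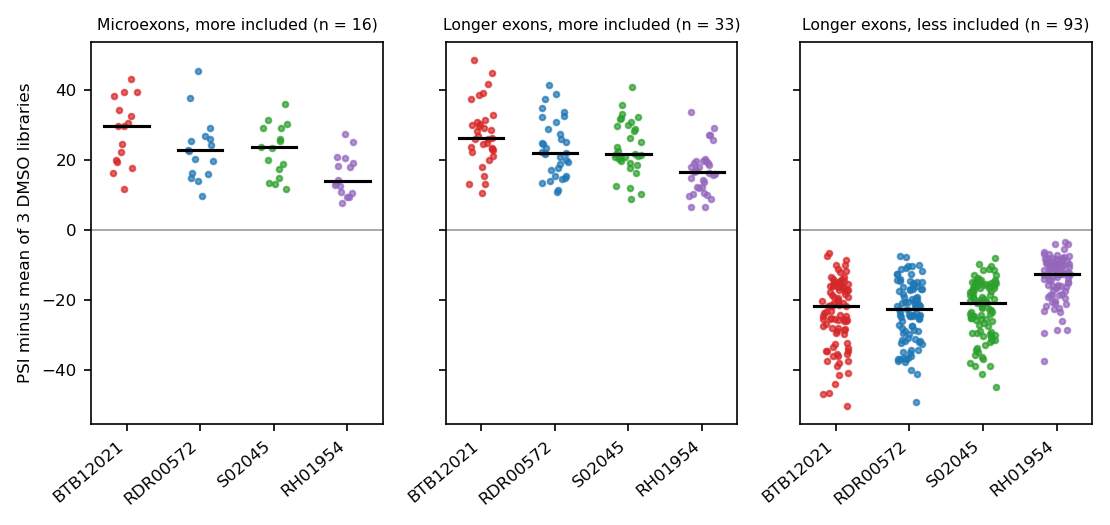
Difference in PSI from the mean of the 3 DMSO libraries for each compound, 1 point per exon, in the 16 microexons and 33 longer exons called more included and the 93 longer exons called less included for the 4 together, with a black line at each median. The points were chosen by the mean of the 4, and the medians in the microexons are 29.7, 22.8, 23.6 and 13.98 PSI from left to right.

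RDR00572 stood apart in intron retention. Tested singly it had 67 introns called higher (0.0888%), of which 65 were called for no other compound, whereas BTB12021 had 15 (0.0199%), S02045 8 (0.0106%) and RH01954 4 (0.00530%). In these 67 introns the median was 15.7 PSI in RDR00572, 0.67, 0.39 and 0 PSI in the DMSO libraries, 1.12 PSI in BTB12021, 2.44 PSI in S02045 and 2.23 PSI in RH01954, values that chose the introns and are a description. Over all 75445 introns mean retention was 1.39% in RDR00572, 0.832 to 0.845% in DMSO, 0.961% in BTB12021, 1.11% in S02045 and 0.939% in RH01954. Introns above 10 PSI numbered 1971 in RDR00572, 1268 in BTB12021, 1457 in S02045, 1163 in RH01954 and 985 to 1096 in DMSO. Both measures were thus above all 3 DMSO libraries in each of the 4 compounds and highest in RDR00572. The dose-matched test against RH01954 called none of these introns, and 2790 of all 75445 introns had an unadjusted p below 0.05. A difference in RNA quality or nuclear RNA content between these libraries was not tested.

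Single exons set one compound apart from the other 3 and from DMSO. By the fixed rule they were those farthest beyond the highest or lowest of the other 6 libraries, with 27 to 325 reads in the library with the fewest, and they are given as values. BTB12021 had 63.6 PSI in a 48-nt exon of Dclk2, a doublecortin-like kinase, where the others had 17.7 to 39.5 PSI, and 46.3 PSI in a 135-nt exon of Kdm6a, a histone demethylase, where the others had 67.7 to 83.7 PSI. It also had 71.7 PSI in Ng23 (others 17.7 to 46.7 PSI) and 67.1 PSI in Rad54b (90.4 to 100 PSI). RDR00572 had 60.2 PSI in a 102-nt exon of Aak1, a kinase of clathrin adaptors, where the others had 19.3 to 39.0 PSI. Its exon of Sfxn5 was at 72.7 PSI against 100 PSI in all others, that of Slc9a7 at 63.9 PSI (others 94.5 to 100 PSI) and that of Inf2 at 59.3 PSI (21.95 to 37.3 PSI). For S02045 the exons were in Samd14 (91.9 PSI, others 64.0 to 70.0 PSI), 0610010F05Rik (43.0 PSI, others 16.7 to 27.4 PSI), Accs (65.3 PSI, others 95.8 to 100 PSI) and Cpeb3 (61.7 PSI, others 85.2 to 97.3 PSI). For RH01954 they were in Ksr1 (60.5 PSI, others 31.6 to 43.6 PSI), Magi3 (70.9 PSI, others 28 to 56.5 PSI), Nav3 (61.3 PSI, others 95.7 to 100 PSI) and Pla2g4b (67.9 PSI, others 87.1 to 100 PSI). Ng23, Dclk2, Kdm6a, Aak1 and Sfxn5 had an adjusted p below 0.05 against DMSO for that compound (0.019, 0.0042, 0.040, 0.016 and 0.017), and the other 11 did not.

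Splicing within genes of splicing factors changed at few places. In 6 lists with 71 tested genes (microexon and neural regulators, Rbm39 with U2AF and relatives, SR proteins, hnRNP proteins, SF3B with the U2 snRNP, and SR protein kinases), 6 of 1064 events had an adjusted p below 0.05 (0.564%), against 0.154% of all events tested. They were in Rbm39 (3), Mbnl1, Elavl2 and Elavl4, and 2 of them, in Mbnl1 and Elavl2, also passed the limit of 10 PSI. The lists were chosen with earlier results of these data known, and an exon and an intron of Rbm39 among the 6 overlap. These shares therefore do not show enrichment. Mbnl1, a regulator of developmental splicing switches, fell from 20.9, 21.97 and 24.3 PSI to 7.82, 7.66, 7.18 and 13.3 PSI in a 111-nt exon (adjusted p = 0.018), and Elavl2, a neuronal RNA-binding protein, from 31.3, 35.4 and 29.2 PSI to 15.5, 15.9, 14.8 and 19.6 PSI in a 39-nt exon (adjusted p = 0.022). The 39-nt exon of Elavl4 differed by less than 10 PSI (96.8 to 98.0 PSI in DMSO, 86.7 to 95.9 PSI with the compounds, adjusted p = 0.022).

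Rbm39 itself, a U2AF-related splicing factor, was chosen after its values were seen. Its 73-nt exon at chr2:156004616-156004688 (mm9, minus strand), which is not a multiple of 3, is shown as the insert that nearly disappeared.
Rbm39, 73 nt: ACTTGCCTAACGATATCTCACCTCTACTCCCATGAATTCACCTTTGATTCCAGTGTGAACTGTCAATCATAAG
It was included at 6.02, 6.63 and 6.38 PSI in DMSO and at 0.62, 0.58, 0.38 and 0.73 PSI with BTB12021, RDR00572, S02045 and RH01954. It fell by 3.55 ± 0.24 (SE) in log2 odds (adjusted p = 0.00023, and at most 0.020 in all 7 fits that left out 1 library). The difference of 5.77 PSI is under the limit of 10 PSI, so the exon is not among the called ones. The other 23 compounds had 5.11 to 18.5 PSI with a median of 7.91 PSI, all above the 4. RH01954 was again the highest of the 4, and RDR00572 minus RH01954 was -0.35 in log2 odds with an unadjusted p of 0.50. A 72-nt exon of the same gene went from 2.17 to 2.33 PSI to 0.32, 0.43, 0.65 and 1.07 PSI (adjusted p = 0.016), with RH01954 again the highest of the 4 (RDR00572 minus RH01954 -1.31 in log2 odds, 95% interval -2.48 to -0.15). It was below 0.05 in 3 of the 7 fits that left out 1 library. Retention of the 1791-nt intron that spans the 73-nt exon fell from 0.85, 2.1 and 1.57 PSI to 0.10, 0.10, 0.02 and 0.29 PSI (adjusted p = 0.041). Rbm39 RNA was at 149 RPKM in DMSO and at 202, 210, 195 and 155 RPKM with the 4 compounds (limma, adjusted p = 0.67), within the 92.0 to 273 RPKM of the other 23.

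**Figure D4:**
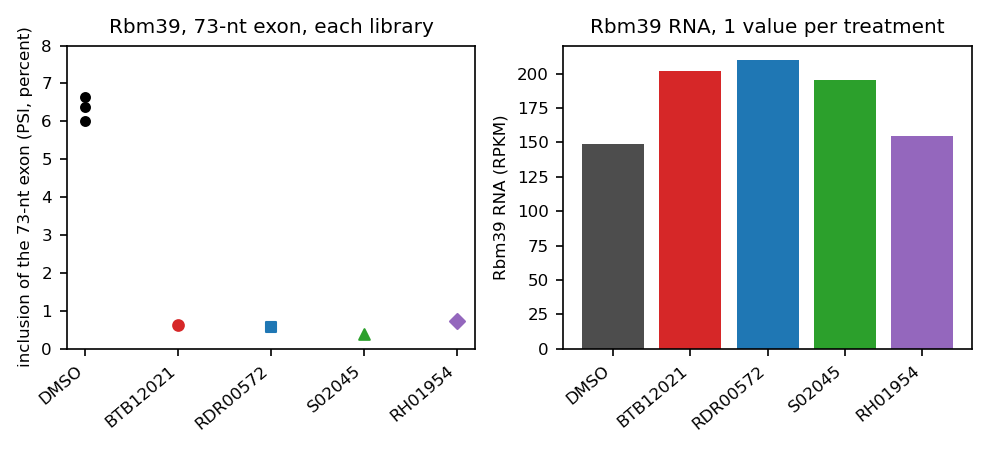
Left, inclusion of the 73-nt exon of Rbm39 (PSI, in percent), 1 point per library for DMSO (3 libraries) and each of the 4 compounds. Right, Rbm39 RNA (RPKM), 1 value per treatment, the DMSO bar being the authors' merged value. The exon is at 6.02 to 6.63 PSI in DMSO and at 0.38 to 0.73 PSI with the compounds.

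Gene expression was compared to see whether the regulators of microexons moved with them. DMSO has 1 merged RPKM value and each compound 1, so the spread came from the 4 compounds alone. Of 9538 genes tested none was called by limma (0.00%), with 757 at an unadjusted p below 0.05, and none had an adjusted p below 0.05. The count was 15 without RH01954 and 1 without S02045. Srrm4 was at 10.4 RPKM in DMSO and 11.5, 10.8, 11.3 and 11.2 RPKM with the compounds, Srsf11 at 104 RPKM and 96.6 to 110 RPKM, Rnps1 at 110 RPKM and 102 to 112 RPKM, and Ptbp1 at 476 RPKM and 404 to 496 RPKM. Srrm3, a relative of Srrm4, was at 18.5 RPKM and 21.6, 17.9, 17.9 and 13.7 RPKM. Ptbp2, the neuronal paralog of Ptbp1, stood higher with each compound, at 89.0 RPKM in DMSO and 133, 145, 133 and 117 RPKM (0.56 ± 0.13 SE in log2, adjusted p = 0.47). Of the 25 genes of that list 21 were tested, with a median log2 difference of -0.08 that equals the median of all genes (-0.08). The kinase Clk1, which phosphorylates SR proteins, was at 32.2 RPKM in DMSO and 45.3, 49.0, 46.5 and 42.9 RPKM (adjusted p = 0.47).

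Past 2-fold in the mean of the 4 were 19 genes higher (0.199%) and 38 lower (0.398%), of which 1 (0.0111% of protein-coding genes) and 8 (0.0885%) code for protein. With each treatment centred on its median the counts were 28 and 35. The 16 genes that the fixed rule names are all noncoding, mostly snRNA, miRNA and snoRNA genes and pseudogenes with values near 0 in some libraries, classes that polyA+ selection is not designed to recover. Gm25829, an snRNA gene, had 12.01 RPKM in DMSO and 230, 199, 61.8 and 30.5 RPKM, and Gm22195, an miRNA gene, 0.99 RPKM and 5.48, 4.85, 8.26 and 7.08 RPKM. The pseudogene RP23-8J15.7 had 287 RPKM in DMSO and was listed at 0 with BTB12021 and S02045. The protein-coding ones were looked at after their values were seen. Agap2, a GTPase-activating protein of neuronal endosomes, was at 5.17 RPKM in DMSO and 11.8, 9.23, 15.01 and 11.1 RPKM. Pmm2, which makes mannose-1-phosphate for glycosylation, was at 63.6 RPKM and 21.4, 25.4, 23.7 and 30.9 RPKM, Gtpbp8 at 10.96 RPKM and 2.49, 3.74, 5.10 and 5.63 RPKM, and Mettl20 at 5.4 RPKM and 1.56, 1.34, 1.88 and 2.80 RPKM.

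Against the other 23 compounds, which gives 4 values against 23, limma called 4 of 10339 genes (0.0387%), all lower, with 10 genes at an adjusted p below 0.05. The 4 were Gtpbp8 (2.49 to 5.63 RPKM against a median of 10.9 RPKM, adjusted p = 0.0070), Mettl20 (1.34 to 2.80 RPKM against 5.51 RPKM, adjusted p = 0.013), the pseudogene RP24-196M16.1 and RP23-330D3.6. Snap23, the non-neuronal relative of Snap25, was at 24.7, 33.6, 27.8 and 34.02 RPKM, below the lowest of the 23 (35.6 RPKM), with a difference of -0.73 ± 0.12 (SE) in log2 (adjusted p = 0.0070), short of 2-fold. Spg7, a mitochondrial protease, Fam45a and Tmem243 were also lower, and Zbed6, a transcription factor, and Ubxn2b higher. No gene was called without BTB12021 or without RDR00572, 1 without S02045 and 2 without RH01954.

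Among the 4 compounds BTB12021 stood apart in stress genes. Of 14 genes of the integrated stress response, the program that Atf4 drives when amino acids or folding capacity fall short, 12 were tested, and all 12 were above DMSO with BTB12021, by a median of 0.69 in log2. The medians were 0.08, 0.18 and 0.12 with RDR00572, S02045 and RH01954, with 8, 11 and 10 of the 12 above DMSO. Over all tested genes the medians were -0.07 with BTB12021 and -0.16, -0.05 and -0.04 with the others in that order. The share of all genes above DMSO was not counted, for this list or the lists below. Past 2-fold were Ddit3, a transcription factor of terminal stress, at 26.7 RPKM in DMSO and 61.7, 30.7, 40.9 and 31.7 RPKM, and Trib3, a pseudokinase, at 18.1 RPKM and 46.0, 19.7, 25.8 and 25.1 RPKM. Chac1, which degrades glutathione, was at 35.6 RPKM and 68.8, 37.0, 43.5 and 38.6 RPKM. Outside the list, and chosen after the values were seen, Cth (cystathionine gamma-lyase) was at 17.02 RPKM and 48.2, 19.2, 24.1 and 20.4 RPKM. The stress cytokine and p53 target Gdf15 was at 5.43 RPKM and 14.2, 7.95, 9.44 and 6.31 RPKM. The highest of the other 23 compounds lay above BTB12021 in each of these genes. It had 140 RPKM for Ddit3, 88.2 RPKM for Trib3, 73.9 RPKM for Chac1, 101 RPKM for Cth and 16.4 RPKM for Gdf15. In BTB12021 alone 13 protein-coding genes were past 2-fold higher (0.144%) and 30 lower (0.332%), against 6 (0.0664%) and 26 (0.288%) with RDR00572, 3 (0.0332%) and 15 (0.166%) with S02045, and 5 (0.0553%) and 6 (0.0664%) with RH01954. There is 1 value per treatment, the dose of BTB12021 was the highest of the 4, and dose and compound cannot be told apart here.

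Among the 4 compounds sterol synthesis genes were also highest with BTB12021. Of 13 tested genes 12 were above DMSO with BTB12021, with a median of 0.43 in log2, whereas 3 were with RDR00572 (median -0.03), 11 with S02045 (0.14) and 11 with RH01954 (0.14). Lss, lanosterol synthase, was at 46.5 RPKM in DMSO and 80.9, 46.9, 47.4 and 52.99 RPKM, and Hmgcs1, the synthase that feeds the mevalonate pathway, at 107 RPKM and 161, 106, 123 and 130 RPKM. The highest of the other 23 compounds lay above BTB12021 in both, at 102 RPKM for Lss and 196 RPKM for Hmgcs1. No gene of the list was past 2-fold. For the other lists the medians are given beside the shift of all genes, which was -0.07, -0.16, -0.05 and -0.04 in log2 for BTB12021, RDR00572, S02045 and RH01954: the medians over the 4 were 0.05 for p53 targets, -0.07 for cell cycle and replication genes, -0.07 for nonsense-mediated decay factors, -0.15 for the metal response, -0.10 for the hypoxia response, -0.20 for heat shock genes, -0.05 for neuronal differentiation genes and -0.0037 for Nrf2 targets. With RDR00572 several medians were lower, at -0.32 for MAPK feedback genes (0 of 11 above DMSO), -0.32 for neuroblastoma markers (2 of 10), -0.30 for neuronal differentiation genes (1 of 9) and -0.29 for heat shock genes (0 of 9). Heat shock genes above DMSO numbered 0 with BTB12021, 1 with S02045 and 1 with RH01954. RNA of the spliced genes had a median log2 difference of -0.08 over 14 genes with a risen microexon, -0.06 over 28 with a risen longer exon and -0.09 over 84 with a fallen longer exon, and no gene of these sets was past 2-fold. Below -0.5 were 4 of the 84 and 1 of 3 genes with a more retained intron, beside 3.04% of all genes. Genes with only a called splice site, or only changes under 10 PSI, were not in these sets.

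**Figure D5:**
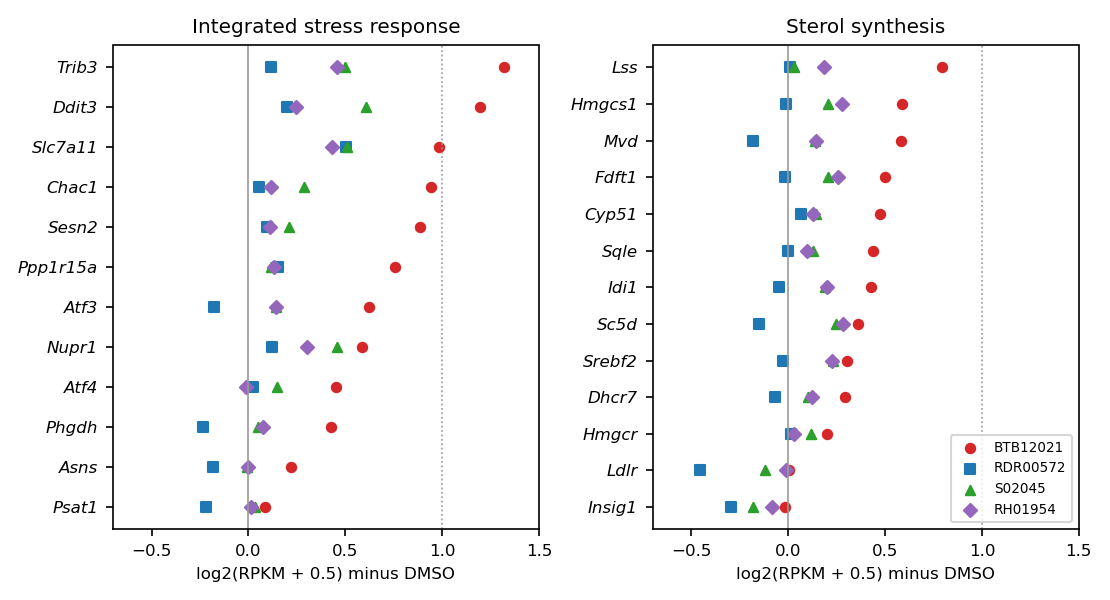
Difference from DMSO in log2(RPKM + 0.5) for the tested genes of the integrated stress response (left, 12 genes) and of sterol synthesis (right, 13 genes), 1 symbol per compound. The dotted line marks 2-fold, which Trib3 and Ddit3 pass with BTB12021 and no other symbol passes.

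RDR00572 and RH01954 differed in RNA levels by description only, since each has 1 value. RDR00572 was past 2-fold above RH01954 in 156 of 9540 genes (1.64%) and below in 46 (0.482%), of which 32 and 7 code for protein. Among these Cdt1, a licensing factor of replication, was at 148 RPKM with RDR00572 and 65.3 RPKM with RH01954 (76.5 RPKM in DMSO), Tomm20, an import receptor of mitochondria, at 267 and 112 RPKM (176 RPKM in DMSO), and Rps27, a ribosomal protein, at 38.1 and 88.4 RPKM (61.2 RPKM in DMSO). Cdt1, Tomm20 and Rps27 lay on opposite sides of DMSO in the 2 libraries, and all 3 genes were chosen after the values were seen.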

How the data were processed

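PolyA+ RNA-seq libraries of N2A cells were grouped by the treatment in their labels. Per the labels the build was mm9, and coordinates are given in it. The authors deposited PSI values in percent from vast-tools, with inclusion and exclusion reads per event in the quality scores, 1 column per library. Gene values were deposited as RPKM, which the authors derived from Salmon estimates (version 0.10.2 in the submitters' processing notes, where edgeR is also named), 1 merged value per treatment. A table of pooled PSI estimates and fold changes, p-values and calls of the authors were not used, and 0 value columns were left without a treatment.

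Events passed the study's filters of coverage and balance (for introns, 15 reads or more and a p of balance over 0.05). log2 of the ratio of inclusion to exclusion reads, with 0.5 reads added to each, was fitted with 1 coefficient per treatment over 34 libraries. Weights combined counting variance and a variance between libraries of 0.0796, and variances were moderated by limma 3.58.1 (R 4.3.3; robust, with a trend on the counting variance; prior degrees of freedom 5.59). Tests were two-sided, with Benjamini-Hochberg adjustment over all 154646 events. Genes above 5 RPKM were compared by limma on log2(RPKM + 0.5), a scale that understates changes of low genes. The fit was tested on simulated data. The study describes its DMSO controls as biological replicates, though fewer than the 3 DMSO libraries deposited. Nothing in the labels says which are separate cultures, so their spread may in part be technical.

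Named exons were those in genes the study assayed and the called events with the largest differences, for genes those past 2-fold with the largest differences, plus, for each compound, the exons farthest beyond the others. Of the genes farthest beyond the others for each compound, the rule gave mostly small RNA genes at or near 0, and they are not described. The compounds, gene lists and tests were chosen with earlier results of these data known. Sequences were matched to GENCODE M21 transcripts by exon and intron lengths and gene name, without converting coordinates. Results for a few genes are not reported here.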

Additional observations from a re-analysis of the deposited data

Results flagged for a closer look

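In 69 sets of 4 values, 1 for each compound, 4 had a compound far from the other 3 by Dixon's criterion (the gap to the nearest other value as a share of the range, against its 95% critical value). About 1 random set in 20 would exceed it. Many of these sets were picked for their values, so the number cannot be compared with chance. The Mtss1 microexon was at 11.51 PSI with RH01954 and at 31.1 to 32.5 PSI with the others. The Tmem209 exon was at 81.28 PSI with RH01954 and at 58.9 to 60.3 PSI with the others. Slc7a11, the cystine transporter, was at 10.06 RPKM with BTB12021 and at 6.70 to 7.10 RPKM with the others. Sesn2, a stress-induced regulator of mTORC1, was at 41.81 RPKM with BTB12021 and at 24.0 to 25.98 RPKM with the others. The doses of the compounds differ, except between RDR00572 and RH01954.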

How the results depend on the processing

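In 66 events, each looked at under 15 settings, 814 values kept their side of the threshold on the adjusted p, 173 lost it and 3 gained it. Most losses came from leaving out a DMSO library. The limit of 15 PSI and microexons of up to 15 nt used the main fit, so the adjusted p could not change there. Direction was that of the mean PSI difference, which only leaving out a library could change, and it did not turn. Counts were less stable, and the cause was not tested where fewer samples do not give it.

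Against DMSO, with 1 of the 7 libraries left out, microexon rises ranged from 2 to 17 (16 with all), falls from 0 to 2 (2), longer exon rises from 2 to 35 (33), falls from 3 to 111 (93) and retained introns from 0 to 6 (3). A pseudocount of 2 reads gave 30 microexon rises, 76 and 243 longer exons and 33 introns, and the 7 libraries alone 33, 83, 304 and 37. Without the filter 52 longer exons rose and 15 introns were retained, and with the trend on read depth, an alternative chosen after seeing the data, 18 introns. Microexon falls were 1 at 15 PSI, 0 with microexons of up to 15 nt and 1 without weights.

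Against the other 23, 184 longer exons fell at 15 PSI, and against the HDAC inhibitors 11 microexons rose and 346 longer exons fell. RDR00572 against RH01954 gave 1 event with a pseudocount of 2 reads.

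For BTB12021, RDR00572, S02045 and RH01954 alone (227, 320, 166 and 32 events), settings also added after seeing the data gave 75, 58, 47 and 1 without weights, 453, 580, 294 and 72 with the larger pseudocount and 487, 748, 394 and 158 without the filter. At 15 PSI RDR00572 had 213 and RH01954 16. Without 1 DMSO library the ranges were 25 to 108, 12 to 151, 0 to 68 and 0 to 9.

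For genes, 93 rose and 172 fell past 2-fold at 1 RPKM, 113 and 236 with no limit, where 61 were called. Without 1 compound 22 to 35 rose and 0 to 15 were called (15 without RH01954). Against the other 23, calls ranged from 0 to 2 without 1 compound, and were 2 with a pseudocount of 1 RPKM, 10 at 1 RPKM and 7 without the HDAC inhibitors. RDR00572 against RH01954 had 471 higher and 250 lower at 1 RPKM. No paired analysis was possible because the compounds have 1 library each and share fewer than 2 replicate labels with DMSO. Depth limits introns and exons with few reads, and RPKM values carry no read counts.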
